A study of Mus musculus with 6 samples.

Results

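The insulin-like growth factor (IGF) system was followed in RNA from mouse femur through 10 genes, chosen by gene symbol in the deposited gene table of 34361 genes. They were the ligands Igf1 and Igf2, the receptors Igf1r and Igf2r, and the binding proteins Igfbp2, Igfbp3, Igfbp4, Igfbp5, Igfbp6 and Igfbp7. There were 3 poly(A) RNA-seq libraries from mice given tamoxifen to induce a knockout and 3 from control mice injected with corn oil, 1 mouse a library by the design text. The treatment label gives FGF21 as the gene removed, whereas the design text gives Fshr, which encodes the follicle-stimulating hormone receptor, so these libraries are called knockout-labelled here. Fshr and Fgf21 both had 0 counts in all 6 libraries, so neither gene checks the labels. By the labels, tamoxifen was given to the knockout-labelled mice and not to the controls, so an effect of the drug and an effect of the knockout cannot be told apart. The series title concerns blocking follicle-stimulating hormone in osteocytes of ovariectomized mice. The sources used here do not give the promoter that drives Cre, the strain, the age, or whether the mice were ovariectomized.

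IGF1 and IGF2 are small secreted growth factors that signal through the receptor tyrosine kinase IGF1R and, in part, through the insulin receptor. IGF2R, the cation-independent mannose 6-phosphate receptor, takes up IGF2 for degradation and carries lysosomal enzymes. The binding proteins hold IGFs in the circulation and in the tissue, and proteases release the ligand from them. Bone is rich in both ligands, and bone matrix stores IGFs bound mainly to IGFBP5.

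In the knockout-labelled femora most of this system was lower. Relative to the other genes of each library, 8 of the 10 genes fell, namely both ligands, both receptors and Igfbp3, Igfbp4, Igfbp5 and Igfbp7. Igfbp6 was the 1 gene that rose, by 3.83-fold, and Igfbp2 did not pass the test. The largest fall was that of Igfbp4, at 2.17-fold. The call and direction of these 9 genes held under all 18 alternatives run. No alternative raised the median of all genes by more than 0.0046 on the log2 scale, so this was a weak check of the 8 falls. The size moved with scaling. Igf2r ran from -0.84 to -0.098 on the log2 scale and Igfbp6 from 1.15 to 2.02, while the median of all genes shifted by -0.42 with library totals and by -0.72 by TPM in place of TMM. The test was edgeR's quasi-likelihood test on estimated counts scaled by TMM (trimmed mean of M values), with Benjamini-Hochberg adjustment over 20388 genes, to which all 10 belonged, and a threshold of 0.05. Over all genes tested it called 57.5%, with 28.7% higher and 28.8% lower, so a called gene was common in this comparison. The median log2 fold change of the 10 genes was -0.45, against -0.02 for all genes tested. The share of tested genes with a lower log2 fold change was 8.60% for Igfbp4, 13.0% for Igfbp3, 18.9% for Igf2 and 20.1% for Igf1. It was 25.1% for Igf1r, 28.3% for Igfbp5, 31.5% for Igfbp7 and 44.9% for Igf2r, which lay near the median gene.

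Markers of 16 cell types, counted in the same libraries, differed between the groups. All 12 skeletal muscle fibre markers were higher, and together they held 9.62% to 9.67% of counts in knockout-labelled libraries, against 1.96% to 2.01% in controls. All 10 osteoblast and bone matrix markers were lower, with 2.00% to 2.02% of counts in knockout-labelled libraries and 10.3% to 10.4% in controls. The 7 osteoclast markers were lower as well, at 0.151% to 0.155% of counts in knockout-labelled libraries and 1.12% in each control. Among 6 osteocyte markers 2 were higher and 3 lower, with 0.226% to 0.227% of counts in knockout-labelled libraries and 0.261% in each control. All 8 adipocyte markers were higher, at 0.0543% to 0.0559% in knockout-labelled libraries and 0.0132% to 0.0134% in controls. All 6 erythroid markers and 5 of 6 markers of satellite cells and embryonic myosin were higher. All 7 neutrophil and all 6 macrophage markers were lower. The lists for cartilage, tendon, endothelium, marrow stroma, fibroblasts, pericytes with smooth muscle, and B cells each held members that rose beside members that fell or did not pass. Of 7 cartilage markers tested, 4 were higher, 2 lower and 1 did not pass. Together the cartilage list held 0.0624% to 0.0644% of counts in knockout-labelled libraries and 0.302% to 0.308% in controls. No marker in the table was at 0 in all 6 libraries. These shares moved with the results given here, and their part in the results was not tested. In bulk RNA, fewer cells of a type and less RNA per cell cannot be told apart.

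Each library held 65.8 to 73.5 M estimated counts, or about 16.4 to 18.4 M read pairs where a pair adds about 4 counts. Levels are given as FPKM (fragments per kilobase of transcript, scaled to depth), which allows genes of unlike length to be set side by side. FPKM totals were 422387 to 425480 in knockout-labelled libraries and 331885 to 333327 in controls. Raw FPKM was lower in the knockout-labelled libraries for most genes, with 72.5% of tested genes not overlapping between the groups, 54.6% lying below every control and 17.9% above. The log2 fold changes given here are TMM-scaled, and so differ from the ratio of FPKM means.

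Igf1, a ligand through which growth hormone acts on bone, was at 2.33, 2.34 and 2.43 FPKM in knockout-labelled libraries, against 4.99, 4.98 and 4.66 FPKM in controls. The groups did not overlap, and every control was higher. After scaling Igf1 fell by 0.62 on the log2 scale (SE 0.034, adjusted p = 4.8e-07, edgeR). The gene spans chr10:87694127-87772904 on the plus strand of GRCm39. Of its 8 transcripts in the table, ENSMUST00000095360 held most of the level, with 86.4% ± 2.65 of summed Igf1 transcript FPKM in knockout-labelled libraries and 87.3% ± 0.799 in controls (SD, n = 3 each). This transcript lacks an exon that 3 of the 8 transcripts carry, and that gives the Eb form of the E peptide at the end of the precursor. The exon is shown because it is the part by which the 2 kinds of Igf1 message can be told apart. It lies at chr10:87915298-87915349 of GRCm38 (plus strand, GENCODE M21), all 52 of its bases are coding, and they are given in lower case throughout.
Igf1 exon of ENSMUST00000105300: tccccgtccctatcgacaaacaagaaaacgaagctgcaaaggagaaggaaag

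Transcripts with this exon made up 8.41%, 10.7% and 6.75% of the Igf1 level in knockout-labelled libraries, against 9.15%, 9.24% and 8.59% in controls. The ranges overlapped, and no difference in use of the exon was detected beyond the spread. ENSMUST00000095360 itself fell by 0.61 on the log2 scale in the transcript fit (adjusted p = 0.0015, edgeR over 47621 transcripts). ENSMUST00000105300 did not pass, with a log2 fold change of 0.27 (adjusted p = 0.70, edgeR). ENSMUST00000122100, which also carries the exon and was singled out after its values were seen, went the other way. Its share was 0%, 0.557% and 1.59% in knockout-labelled libraries, against 3.76%, 5.47% and 4.33% in controls, with no overlap. Its log2 fold change of -2.88 did not pass either (adjusted p = 0.10, edgeR).

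Igf2, the fetal growth factor that many adult tissues hold at low level, was at 4.59, 5.22 and 4.997 FPKM in knockout-labelled libraries, against 10.3, 10.6 and 10.3 FPKM in controls. Every knockout-labelled library lay below every control. After scaling it fell by 0.65 (log2, SE 0.054, adjusted p = 4.0e-07, edgeR). Its locus is chr7:142204503-142215607 on the minus strand of GRCm39. The ratio of Igf1 to Igf2 was 0.490 in knockout-labelled libraries and 0.473 in controls, with overlapping ranges (exact permutation p = 0.4, two-sided). The difference was 0.05 (SE 0.060) on the log2 scale.

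Among the Igf2 transcripts tested, 1 fell. ENSMUST00000000033 was at 4.71, 4.44 and 4.09 FPKM in knockout-labelled libraries, against 13.0, 12.7 and 12.8 FPKM in controls, and fell by 1.09 on the log2 scale (adjusted p = 0.00033, edgeR). ENSMUST00000121128, which starts upstream, was at 1.87, 2.16 and 1.63 FPKM in knockout-labelled libraries and 2.23, 2.91 and 2.47 FPKM in controls. Its log2 fold change of 0.03 did not pass (adjusted p = 0.95, edgeR), and it turned negative with library totals or limma and without control replicate 1 or knockout replicate 2. ENSMUST00000000033 held 62.7% ± 7.60 of summed Igf2 transcript FPKM in knockout-labelled libraries and 83.5% ± 1.99 in controls (SD, n = 3 each), and the groups did not overlap. ENSMUST00000105936 was listed at 0, 0.811 and 1.44 FPKM in knockout-labelled libraries and at 0 in every control, and did not pass the filter on low counts, so it was not tested. Transcript values divide shared reads between isoforms by estimate, so a shift between them is less certain than the gene total.

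The start of ENSMUST00000000033 coincides with a RefSeq promoter window (GRCm38.p6, 250 bases before to 50 after the start). It is shown because the Igf2 transcript that fell begins there, beside the windows of the binding proteins that fell and rose most. Searched on both strands, the TATA box, TATAAA, occurs in 13.6% of all 32544 RefSeq promoter windows of this length. The GC box, GGGCGG, is held by 35.9% of them and the CCAAT box by 37.4%. A RUNX site, TGTGGT, is held by 16.7%, an E-box, CAGGTG, by 20.3%, and the palindromic estrogen response element by 0.0707%. Capitals mark the matches, read on either strand, and no matches overlapped in the windows shown. The Igf2 window (chr7:142657447-142657746, minus strand) held 2 GC boxes and 1 CCAAT box, and that of Igfbp4 (chr11:99040994-99041293, plus strand) held 1 TATA box. The Igfbp6 window (chr15:102143936-102144235, plus strand) held 2 CCAAT boxes and 1 TATA box on the minus strand, and its start lies 176 bases from that of the transcript in the table. A match is a description of the letters and not a known binding site.
Igf2: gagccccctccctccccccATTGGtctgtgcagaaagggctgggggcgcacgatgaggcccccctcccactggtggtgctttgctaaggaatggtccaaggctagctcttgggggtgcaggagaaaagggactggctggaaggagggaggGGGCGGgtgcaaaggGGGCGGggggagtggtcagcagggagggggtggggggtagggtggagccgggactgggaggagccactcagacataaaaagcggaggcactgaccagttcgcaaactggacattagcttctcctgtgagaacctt
Igfbp4: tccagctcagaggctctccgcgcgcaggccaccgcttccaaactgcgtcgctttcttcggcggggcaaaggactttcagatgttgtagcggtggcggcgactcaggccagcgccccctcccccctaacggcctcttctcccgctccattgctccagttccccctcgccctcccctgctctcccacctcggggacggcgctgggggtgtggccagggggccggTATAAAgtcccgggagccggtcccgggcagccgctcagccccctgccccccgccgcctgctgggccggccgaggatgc
Igfbp6: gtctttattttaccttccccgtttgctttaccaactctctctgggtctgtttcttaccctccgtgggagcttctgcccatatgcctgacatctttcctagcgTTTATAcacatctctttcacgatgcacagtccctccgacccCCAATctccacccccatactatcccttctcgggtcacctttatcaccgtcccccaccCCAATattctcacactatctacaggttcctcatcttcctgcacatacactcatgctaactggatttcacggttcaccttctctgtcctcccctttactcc

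**Figure D1:**
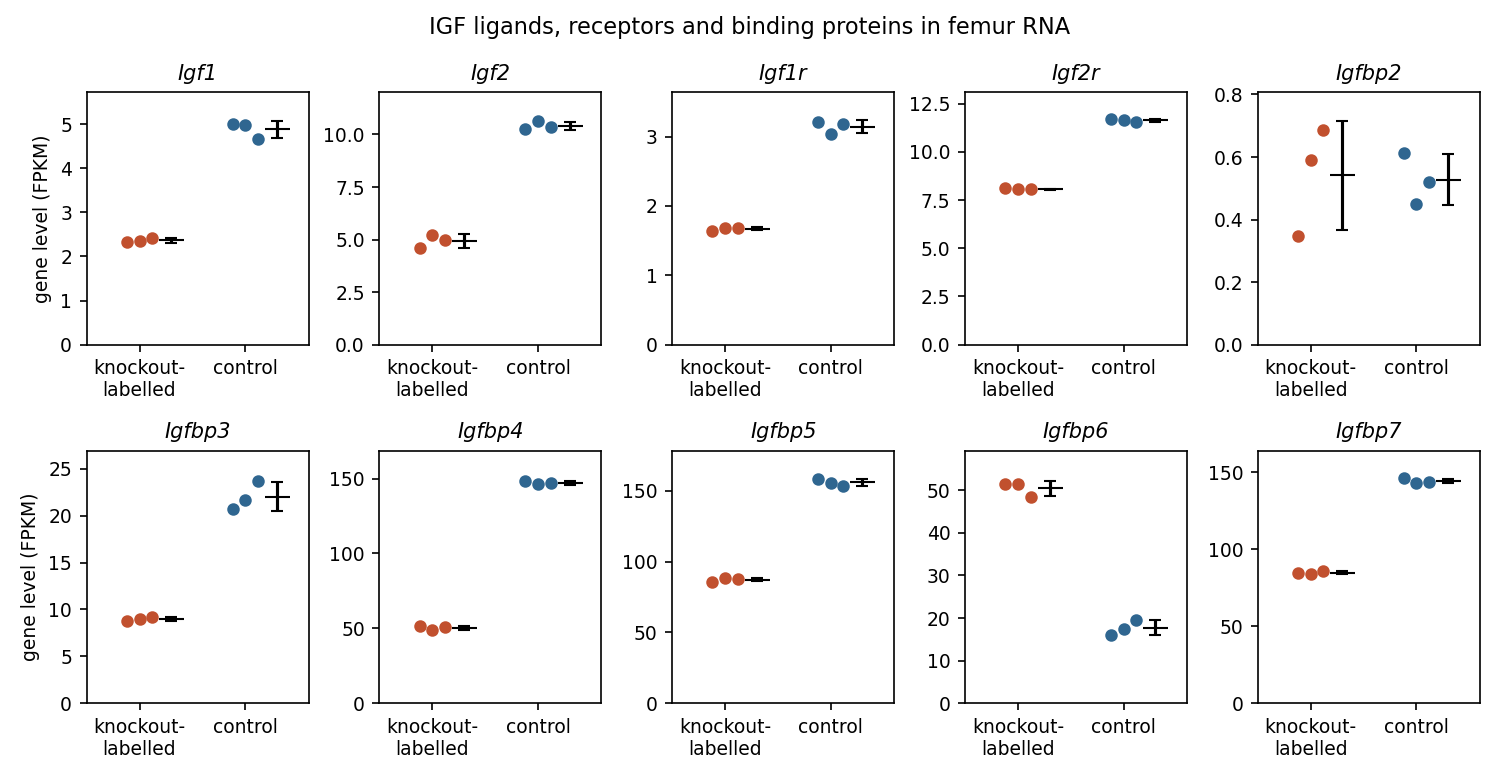
FPKM of each of the 10 genes in the 3 knockout-labelled and 3 control libraries (points, with the mean and SD), knockout-labelled on the left. The groups do not overlap for 9 genes, beside 72.5% of all genes tested. Of the 9, Igfbp6 is the one whose knockout-labelled libraries lie above the controls.

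**Figure D2:**
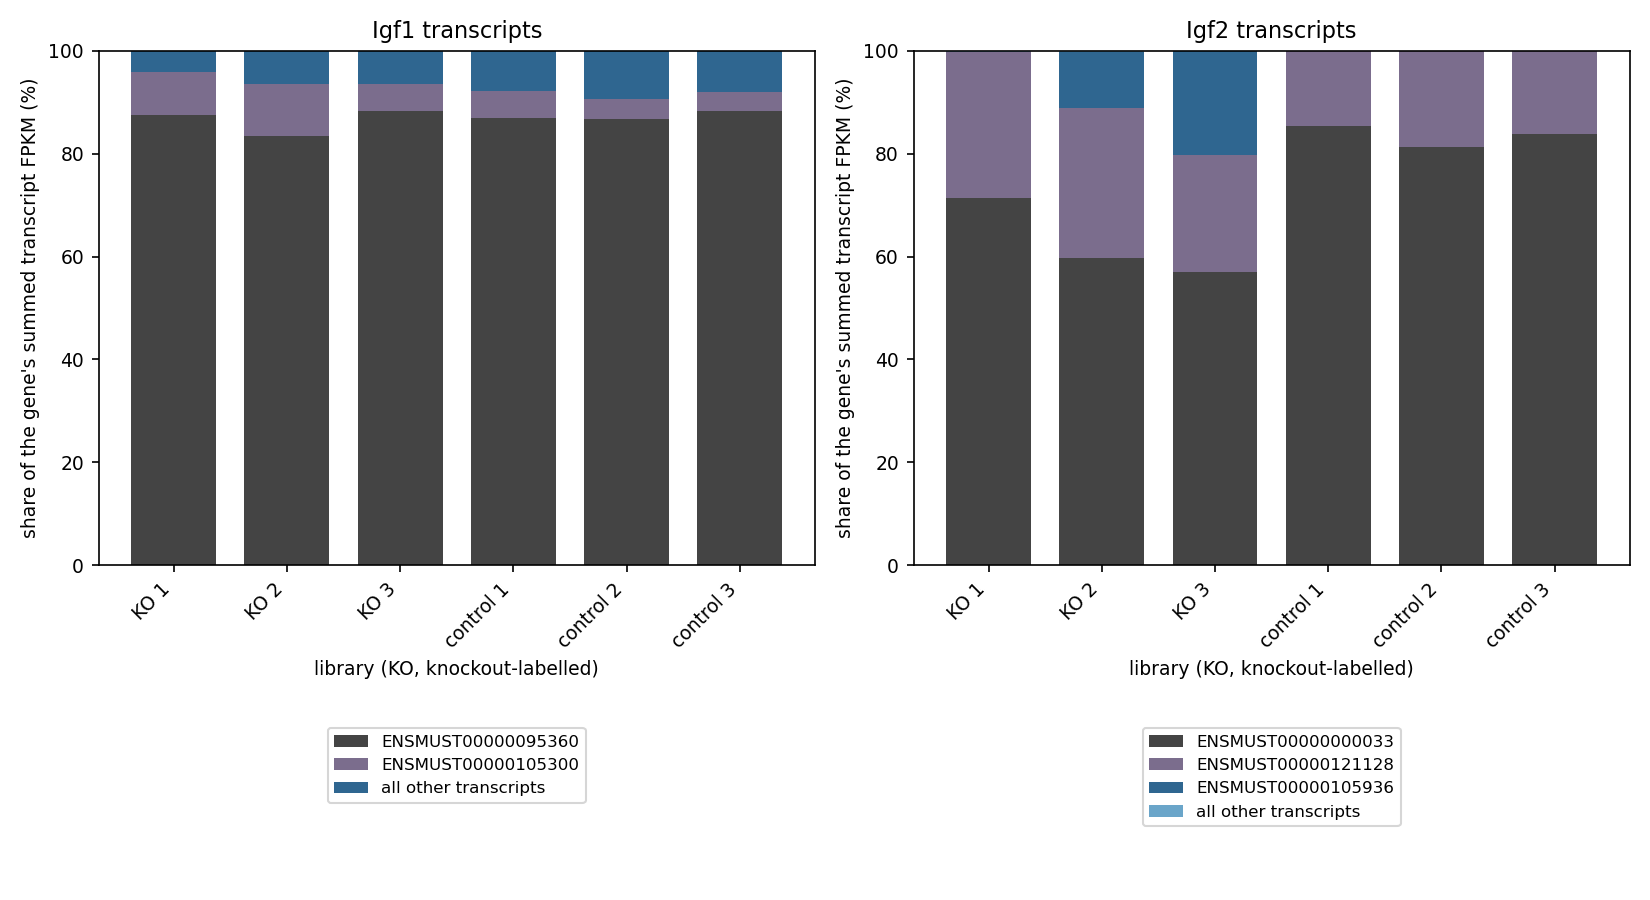
Share of the summed transcript FPKM of Igf1 and of Igf2 held by each named transcript in each library, in percent, with knockout-labelled libraries (KO) left of controls. ENSMUST00000000033 of Igf2 averages 62.7% in knockout-labelled libraries and 83.5% in controls.

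Igf1r, the receptor tyrosine kinase of both ligands, was at 1.65, 1.69 and 1.68 FPKM in knockout-labelled libraries, against 3.21, 3.04 and 3.18 FPKM in controls. The groups did not overlap. Scaled, it fell by 0.48 (log2, SE 0.023, adjusted p = 1.6e-06, edgeR). It maps to chr7:67602575-67883416 on the plus strand. Igf2r was at 8.11, 8.06 and 8.07 FPKM in knockout-labelled libraries and at 11.7, 11.6 and 11.6 FPKM in controls. This was the smallest of the 8 falls, at 0.10 (log2, SE 0.0069, adjusted p = 0.0082, edgeR). Its main transcript did not pass the transcript test (log2 fold change -0.08, adjusted p = 0.17, edgeR). Igf2r spans chr17:12901293-12988551 on the minus strand.

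Within libraries, receptor balance differed. The Igf1r to insulin receptor (Insr) ratio was 0.412 in knockout-labelled libraries and 0.676 in controls. The Igf1r to Igf2r ratio was 0.217 in knockout-labelled libraries and 0.276 in controls. Igf2r relative to M6pr, the cation-dependent mannose 6-phosphate receptor, was 0.448 in knockout-labelled libraries and 0.289 in controls. These 3 ratios did not overlap between the groups, and such ratios do not depend on how libraries are scaled. An exact permutation test of 3 against 3 cannot go below p = 0.1, which each of them reached (two-sided, adjusted p = 0.109 over 12 ratios). Of the 12 ratios only that of Igf1 to Igf2 overlapped. FPKM of single genes did not overlap for 72.5% of those tested, so groups without overlap were common in this comparison.

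Igfbp4, Igfbp5 and Igfbp7 were the members with the highest control levels. Igfbp5, the main IGF binding protein of bone matrix, was at 85.8, 88.1 and 87.9 FPKM in knockout-labelled libraries and 159, 156 and 153 FPKM in controls. It fell by 0.41 on the log2 scale (SE 0.014, adjusted p = 1.2e-09, edgeR). Igfbp4, which blocks IGF action until PAPP-A cleaves it, was at 51.3, 48.9 and 51.2 FPKM in knockout-labelled libraries and 148.5, 146 and 147 FPKM in controls. It fell by 1.12 (log2, SE 0.024, adjusted p = 1.1e-12, edgeR), the largest fall of the family. The groups did not overlap for either gene. Igfbp7, a protein of low IGF affinity found in vessel walls and matrix, was at 84.9, 83.8 and 85.6 FPKM in knockout-labelled libraries and 146, 143 and 144 FPKM in controls. It fell by 0.34 (log2, SE 0.010, adjusted p = 2.0e-07, edgeR). Every knockout-labelled library again lay below every control.

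Igfbp3, the main carrier of IGFs in blood, was at 8.75, 9.03 and 9.16 FPKM in knockout-labelled libraries, against 20.7, 21.7 and 23.8 FPKM in controls. It fell by 0.87 (log2, SE 0.064, adjusted p = 4.5e-08, edgeR). Igfbp6, which binds IGF2 in preference to IGF1, was at 51.4, 51.5 and 48.5 FPKM in knockout-labelled libraries, against 16.1, 17.4 and 19.6 FPKM in controls. The knockout-labelled libraries were all above the controls, opposite to the other called members. Its log2 fold change was 1.94 (SE 0.092, adjusted p = 1.8e-10, edgeR), higher than 95.5% of tested genes. Igfbp2 was rare, with 48, 79 and 102 counts in knockout-labelled libraries and 84, 66 and 74 counts in controls. Its 0.348, 0.591 and 0.686 FPKM in knockout-labelled libraries and 0.612, 0.449 and 0.521 FPKM in controls overlapped. The log2 fold change of 0.46 (SE 0.30, adjusted p = 0.23, edgeR) did not pass, so a difference was not detectable at this depth. It was 0.69 without knockout replicate 1 (adjusted p = 0.065, edgeR) and 0.26 without knockout replicate 3 (adjusted p = 0.56, edgeR), and over all 15 alternatives its adjusted p ran from 0.065 to 0.96. The loci in GRCm39 are chr1:72863662-72891633 plus for Igfbp2, chr11:7156086-7163923 minus for Igfbp3 and chr11:98932070-98945218 plus for Igfbp4. Igfbp5 lies at chr1:72897091-72914043 minus, beside Igfbp2, Igfbp6 at chr15:102052797-102057946 plus and Igfbp7 at chr5:77497087-77555888 minus.

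**Figure D3:**
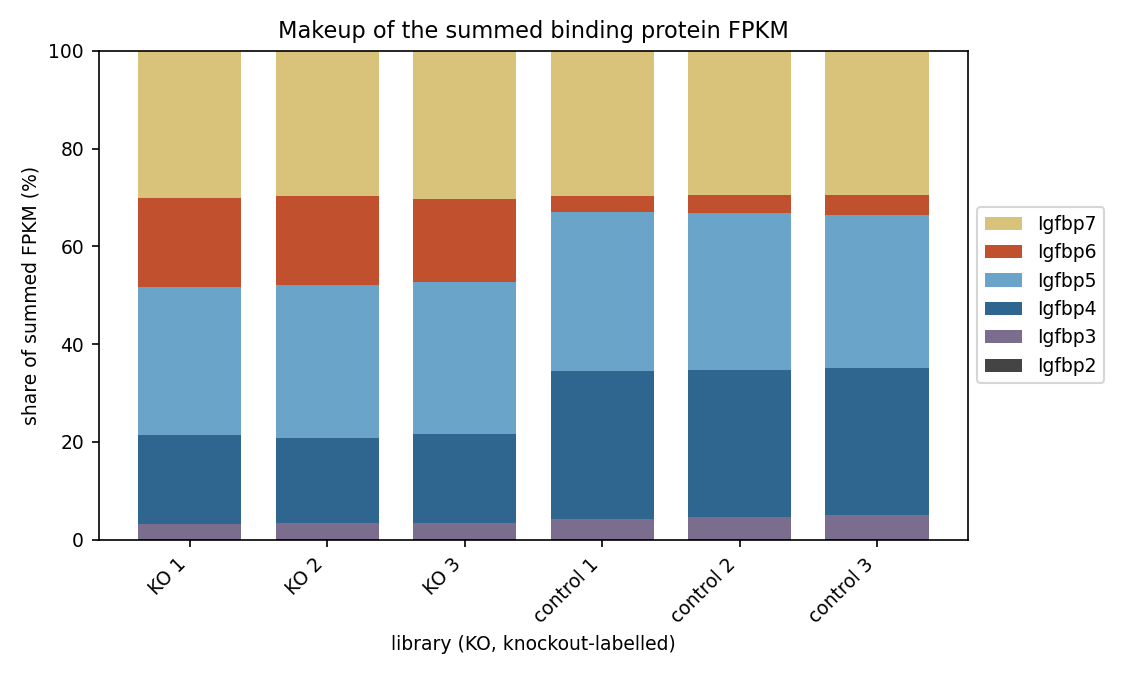
Share of summed binding protein FPKM held by each of the 6 binding proteins in each library, in percent, with knockout-labelled libraries left of controls. Igfbp6 holds 17.9% on average in knockout-labelled libraries and 3.62% in controls, and Igfbp4 holds 17.9% in knockout-labelled libraries and 30.2% in controls.

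The binding protein message differed in makeup. Summed over the 6 genes it was 282 ± 0.605 FPKM in knockout-labelled libraries and 488 ± 2.87 FPKM in controls (SD, n = 3 each). Igfbp4 made up 17.9% ± 0.447 in knockout-labelled libraries and 30.2% ± 0.0962 in controls, and Igfbp6 made up 17.9% ± 0.639 in knockout-labelled libraries and 3.62% ± 0.370 in controls. Igfbp3 held 3.18% ± 0.0724 in knockout-labelled libraries and 4.52% ± 0.329 in controls. These 3 shares did not overlap, each with exact permutation p = 0.1, the smallest possible, and adjusted p = 0.15 over 6 shares. Igfbp7 held 30.01% ± 0.256 in knockout-labelled libraries and 29.6% ± 0.151 in controls, with overlap (exact permutation p = 0.2). Igfbp5 held 30.9% ± 0.468 in knockout-labelled libraries and 32.0% ± 0.476 in controls, which did not overlap, and by counts in place of FPKM its share was higher instead. By summed transcript FPKM, chosen after seeing the data, the Igfbp5 shares overlapped (exact permutation p = 0.4) and the Igfbp7 shares did not (exact permutation p = 0.1). Within libraries the Igfbp6 to Igfbp4 ratio was 0.999 in knockout-labelled libraries and 0.120 in controls, and Igfbp5 to Igfbp4 was 1.73 in knockout-labelled libraries and 1.06 in controls. Igf1 relative to the sum of Igfbp2 to Igfbp6 was 0.0125 in knockout-labelled libraries and 0.0145 in controls, also with no overlap.

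In order of deposited gene FPKM, knockout-labelled libraries ran Igfbp5, Igfbp7, Igfbp4 with Igfbp6, Igfbp3, Igf2r, Igf2, Igf1, Igf1r and Igfbp2. Controls ran Igfbp5, Igfbp4 with Igfbp7, Igfbp3, Igfbp6, Igf2r, Igf2, Igf1, Igf1r and Igfbp2. In each order the pair joined by "with" overlapped or touched between libraries. The order depends on the length behind FPKM, which for most members exceeds the longest transcript. By summed transcript FPKM, Igfbp7 at 90.6 to 92.3 lay above Igfbp5 at 85.8 to 88.1 in knockout-labelled libraries, and Igfbp4 and Igfbp6 no longer overlapped there. In controls the same sums put Igfbp4 first, at 169 to 172 FPKM, above Igfbp5 with Igfbp7, and Igf2, at 15.2 to 15.6 FPKM, above Igf2r, at 12.2 to 12.3 FPKM. The coefficient of variation within a group was 0.326% to 10% for the 9 called members, and 32.1% in knockout-labelled and 15.5% in control libraries for Igfbp2.

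How far the other genes of the pathway moved was read from 5 lists with 56 entries, of which 51 could be tested. Of these 24 rose, 19 fell and 8 did not pass. Called were 84.3% of them, beside 57.5% of all genes tested (28.7% higher and 28.8% lower). The counts of each list below stand beside the same shares of all genes. The median of the pathway genes was 0.08 on the log2 scale against -0.02 for all genes tested. With library totals in place of TMM, 8 were higher and 32 lower, beside 16.6% and 50.7% of all genes tested. By TPM 6 were higher and 41 lower, beside 11.9% and 74.7% of all genes. Directions of the pathway genes are therefore given relative to TMM.

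In the growth hormone receptor axis 3 of 7 genes rose, 2 fell and 2 did not pass. Ghr, the growth hormone receptor, averaged 13.1 ± 0.221 FPKM in knockout-labelled libraries and 10.1 ± 0.345 FPKM in controls (SD, n = 3 each), with a log2 fold change of 0.80 (adjusted p = 9.0e-10, edgeR), which did not pass by TPM (0.02). Stat5b, the transcription factor that carries the growth hormone signal to Igf1, averaged 26.2 ± 0.941 FPKM in knockout-labelled libraries and 15.4 ± 0.261 FPKM in controls, a log2 fold change of 1.20 (adjusted p = 1.7e-11, edgeR). Socs2, a feedback inhibitor induced by that signal, averaged 1.11 ± 0.0805 FPKM in knockout-labelled libraries and 4.86 ± 0.0718 FPKM in controls, and fell by 1.70 (log2, adjusted p = 2.9e-10, edgeR). Socs3 fell by 1.30. The ratio of Igf1 to Ghr was 0.186 in knockout-labelled libraries and 0.487 in controls and did not overlap.

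Proteolysis and complexes of the binding proteins had 2 genes higher, 3 lower and 1 not called of 6. Htra1, a secreted protease that cleaves IGFBP5, averaged 27.7 ± 0.788 FPKM in knockout-labelled libraries and 99.8 ± 1.20 FPKM in controls (SD, n = 3 each), and fell by 1.42 (log2, adjusted p = 8.4e-13, edgeR). Pappa, the protease of IGFBP4, averaged 0.492 ± 0.0884 FPKM in knockout-labelled libraries and 1.47 ± 0.0241 FPKM in controls and fell by 1.15 (adjusted p = 5.5e-06, edgeR). Igfals, the acid-labile subunit that joins IGFBP3 in blood, was at 1.15 FPKM in knockout-labelled libraries and 0.523 FPKM in controls, a log2 fold change of 1.55 (adjusted p = 7.1e-06, edgeR). Igfals was named after its values were seen. Stc2, an inhibitor of PAPP-A, passed with 0.35 (adjusted p = 0.0021, edgeR), but its direction reversed with library totals, with TPM and with limma on FPKM that was not quantile-normalized.

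Receptor partners and adapters had 5 genes higher, 2 lower and 1 not called of 8. Shc1 and Grb10, an adapter that damps receptor signalling, fell by 0.60 and 0.41 on the log2 scale. Insr and Irs1, the main docking protein of both receptors, passed as higher at 0.26 each, and both turned negative with library totals, with TPM and with limma on FPKM that was not quantile-normalized. In the PI3K, AKT, mTOR and FOXO list 11 of 22 rose, 8 fell and 3 did not pass. The AKT kinases moved apart, Akt2 at 29.4 ± 0.400 FPKM in knockout-labelled libraries and 21.4 ± 0.220 FPKM in controls (0.88, adjusted p = 1.8e-11, edgeR), and Akt1 at 23.7 ± 0.167 FPKM in knockout-labelled libraries and 46.8 ± 1.65 FPKM in controls (-0.56, adjusted p = 1.3e-08, edgeR). Foxo4, a transcription factor that AKT holds out of the nucleus, was at 32.4 FPKM in knockout-labelled libraries and 17.6 FPKM in controls, a log2 fold change of 1.30 (adjusted p = 1.8e-12, edgeR). Tsc2, a brake on mTOR, was higher by 0.61 (adjusted p = 6.0e-08, edgeR), a direction that turned negative by TPM.

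H19, the imprinted noncoding RNA beside Igf2, went the other way from its neighbour. It was at 338, 328 and 332 FPKM in knockout-labelled libraries, against 95.0, 97.2 and 98.7 FPKM in controls, a log2 fold change of 2.20 (SE 0.026, adjusted p = 2.5e-15, edgeR). The ratio of Igf2 to H19 was 0.0151 in knockout-labelled libraries and 0.108 in controls, with no overlap. Of the 8 genes tested in the list of H19, message binding proteins and mannose 6-phosphate genes, 3 rose, 4 fell and 1 did not pass. Plagl1, an imprinted transcription factor known to act on this locus, averaged 1.85 FPKM in knockout-labelled libraries and 7.22 FPKM in controls and fell by 1.53 (log2, adjusted p = 9.0e-10, edgeR). Gnptab, which makes the mannose 6-phosphate tag that IGF2R binds, fell by 1.23, and M6pr by 0.74. The message binding proteins Igf2bp2 and Igf2bp3 were under 1 FPKM in all 6 libraries, and Igf2bp1 was listed at 0 in all.

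**Figure D4:**
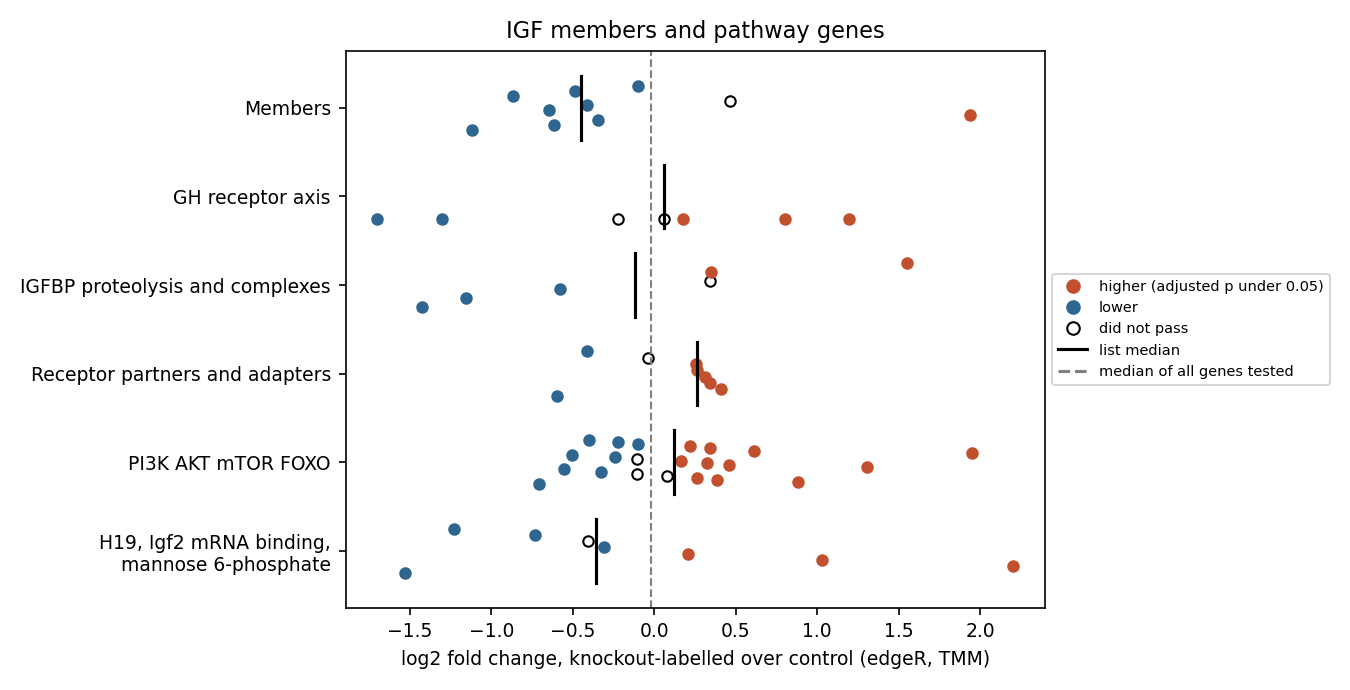
log2 fold change (knockout-labelled over control) of the 10 members and of each tested pathway gene, grouped by list, with the list median as a bar. H19 is the highest of the list that holds Plagl1 and Gnptab, at 2.20, and Socs2 the lowest of the growth hormone list, at -1.70.

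Among 37 transcripts of the 10 genes 19 could be tested, with 1 higher, 8 lower and 10 not called. Over all transcripts tested 18.1% were called, 10.2% higher and 7.93% lower. The transcript of Igfbp4 with the highest level fell by 1.09, that of Igfbp5 by 0.38, that of Igfbp7 by 0.32 and that of Igfbp3 by 0.83, and the Igfbp6 transcript rose by 1.96. The Igf1r coding transcript fell by 0.45 (adjusted p = 0.0026, edgeR).

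Genes whose log2 level over the 6 libraries followed that of a member most closely were found among 6700 genes with mean FPKM of at least 5. Each gene's log2 CPM was centred on its own mean over the libraries, so the root mean square distance compares patterns and not levels. Closest to Igf1 were Lrrc59, Actg1 and Kctd12, at 0.028 to 0.029. Lrrc58, Ssr3 and Degs1 were closest to Igf2, at 0.019 to 0.025, and Tpp1, Ssr1 and Ppp1r15b to Igf1r, at 0.0094 to 0.018. For Igfbp4 these were Ngp, Fn1 and Ttyh3, for Igfbp5 Ddx17, Ankrd13a and Tmod3, and for Igfbp7 Ppfibp1, Nbl1 and Paxbp1, at 0.0084 to 0.022 in all 3 cases. The points share 6 libraries and 2 groups, so closeness largely reflects a like difference between the groups.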

How the data were processed

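RNA from the femora of 3 knockout-labelled and 3 control mice was sequenced, after poly(A) selection with a stranded kit and in pairs of 150-base reads, per the labels' protocols. The deposited tables hold FPKM and estimated counts per gene and per transcript. Per the submitters' processing notes, fastp, HISAT2, StringTie and RSEM and the build GRCm39 were used by the authors. Versions, strand setting, filters and annotation release: not given in the sources used here. The deposited estimated counts equalled FPKM times length and a library constant within 1 count or 0.2%. That holds whichever was computed from the other, so it does not show how the counts were made. The deposited FPKM of a gene rests on a gene length that for Igf1, Igf2, Igf1r, Igf2r, Igfbp2, Igfbp3 and Igfbp4, and slightly for Igfbp7, exceeds its longest transcript, so their transcript sums are higher.

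Estimated counts were rounded and tested in R 4.3.3 with edgeR 4.0.16 (filterByExpr, TMM, quasi-likelihood F test, Benjamini-Hochberg at 0.05), with group as the only term. Common biological CV was 0.125. Limma 3.58.1 and DESeq2 1.42.0 were alternatives, as were other scalings, filters, pseudocounts, counts divided by 4, a replicate block, TPM and leaving out each replicate. A floor of 3 read pairs was 12 counts, 0.163 to 0.182 CPM. The floor covers counting error alone, because reads copied by PCR do not count separate molecules. Taking 4 counts as 1 read pair, no same-group pair agreed within sampling noise (median chi-square 1.52 to 1.64 times the noise), and no pair was merged. A larger divisor would lower that multiple, and 43.8% to 49.2% of low counts were 4, 8 or 12. Agreement within noise under another divisor is therefore not excluded. For the genes with the most read pairs, the CV between 2 libraries was 1.86% to 2.43% within groups. Between groups it was 50.7% to 52.8%. That each library is 1 mouse rests on the design text, and these values do not test it. P-values measure the spread between these libraries, which was small. They cover the spread between mice only if each library is a separate mouse. Ratios used FPKM + 0.1.

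The 10 genes and all lists were chosen with earlier results of these data known. All members were named, with pathway genes past the threshold at a mean FPKM of at least 1, the 2 smallest adjusted p per list at any level (which takes in Pappa), the 3 genes closest in pattern for 6 members, and transcripts with 5% of their gene. Promoter windows are RefSeq (GRCm38.p6) and the Igf1 exon GENCODE M21 (GRCm38), and no coordinate was converted from GRCm39. The procedure was tested on simulated counts in which few genes changed, in random directions. In these data 57.5% of the genes tested were called, so the simulation does not check the scaling used here.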

Additional observations from a re-analysis of the deposited data

How the results depend on the processing

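All 9 called members kept their call and direction under all alternatives run. None of these raised the median gene by more than 0.0046 on the log2 scale, so they were a weak check of the members that fell. Their log2 fold changes ranged from -1.25 to -0.47 for Igf1, -1.35 to -0.60 for Igf2, -1.08 to -0.31 for Igf1r, -0.84 to -0.098 for Igf2r, -1.60 to -0.81 for Igfbp3, -1.88 to -1.09 for Igfbp4, -1.18 to -0.40 for Igfbp5, 1.15 to 2.02 for Igfbp6 and -1.12 to -0.34 for Igfbp7. Igfbp2 reversed to -0.19 by TPM. The median gene shifted by -0.42 with library totals and by -0.72 by TPM, and the split of all genes went to 3379 higher and 10339 lower with library totals, against 5860 and 5872 with TMM. For the pathway lists, 8 rose and 32 fell with library totals, 8 and 31 with limma on FPKM + 0.1, 8 and 30 with limma on FPKM + 1, 8 and 32 without its filter, and 6 and 41 by TPM. In that same order, Stc2 reversed to -0.072, -0.074, -0.057, -0.057 and -0.38, Irs1 to -0.16, -0.17, -0.15, -0.15 and -0.49, and Insr to -0.16, -0.16, -0.13, -0.13 and -0.47. Tsc2 reversed to -0.16 by TPM. The uncalled Igf1 transcript ENSMUST00000105300 reversed to -0.17 with library totals. The uncalled Igf2 transcript ENSMUST00000121128 reversed to -0.42 with library totals, -0.29 with limma on FPKM + 1, -0.051 without control replicate 1 and -0.067 without knockout replicate 2, and leaving out each replicate in turn gave -0.067 to 0.14. The Igfbp5 share difference was 5.47 percentage points by summed counts, against -1.07 by FPKM. The Igf2r transcript passed with library totals (-0.52) and limma (-0.48). The causes were not tested.

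Replicate numbers did not pair the libraries, since correlations of same-numbered deviations were -0.037, 0.0052 and 0.030. With a replicate block 9 members were called, 1 higher and 8 lower. Depth limits Igfbp2, with 48 to 102 counts per library.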
